A study of Arabidopsis thaliana with 36 samples.

Results

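In Arabidopsis leaves moved to a higher light level, 43 genes had transcript amounts that were low at 120 min and stood at 0.67 of their starting level or above it at 240 min, in both ecotypes studied. They were picked from 37336 genes of the table, of which 13817 had at least 1 of 36 readings above 7 RPKM, a read count scaled to the length of the gene and to the size of the library. The measure was R(t), the mean RPKM of 3 libraries at time t plus 1, divided by the mean at 0 min plus 1. A member had a reading above 7 RPKM and, in both ecotypes, R(120) of at most 0.4 and R(240) of at least 0.67. Taking each ecotype by itself, 81 genes met these limits in Col-0 and 229 in WS, and 566 genes had R(120) of at most 0.4 in both ecotypes whatever their value at 240 min. Of all genes above 7 RPKM, R(120) was at most 0.4 for 6.16% in Col-0 and 6.41% in WS, and R(240) was at least 0.67 for 81.5% and 84.6%. The libraries at 0, 120 and 240 min therefore chose the members, and their values are given as a description without a test. The libraries at 15, 30 and 60 min entered the choice only through the floor of 7 RPKM, and tests were made on these only. Leaves of all times came from the same 3 plants of an ecotype, so these libraries are not independent of those that chose the members.

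The 2 groups of plants were the wild-type ecotypes Col-0 and WS, grown hydroponically with a 12 h photoperiod at a PFD (photon flux density) of 120 μmol m-2 s-1. They were placed in a gas exchange chamber and a leaf was taken before the PFD was raised to 500 μmol m-2 s-1 (0 min) and at 15, 30, 60, 120 and 240 min after. Leaves came from 3 plants of an ecotype, which gave 36 mRNA libraries in 12 groups of 3. No library was taken at low light after 0 min, so light, time of day, the chamber and repeated removal of leaves cannot be told apart in any difference over time, and fewer cells of a type and less RNA per cell cannot be told apart in whole leaves.

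Some of the members act in the chloroplast or in carbon metabolism. The Calvin-Benson cycle fixes CO2 in the stroma, and CP12 proteins hold 2 of its enzymes in an inactive complex in the dark. The NDH complex of the thylakoid membrane passes electrons from ferredoxin back to plastoquinone and so takes part in cyclic electron flow around photosystem I. Fructose bisphosphate aldolase joins or splits sugar phosphates both in the stroma and, in sucrose synthesis and glycolysis, in the cytosol.

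Some libraries stood apart, and they bear on which genes are members. Of 36 libraries, 27 were nearest to the mean of their own group. The own mean left the library itself out and so rested on fewer libraries, which makes distances to it somewhat larger. Col-0 at 120 min replicate 1 was nearest to the Col-0 mean at 240 min, and WS at 120 min replicate 3 was nearest to the WS mean at 240 min. The median over the 43 members of a library's RPKM relative to the mean at 0 min (1 RPKM added to both) was 0.477, 0.271 and 0.141 in Col-0 replicates 1, 2 and 3 at 120 min, and 0.560, 0.984 and 0.921 at 240 min. The median of Col-0 replicate 1 thus differed little between both times, though single members such as BBD1 and CXXS1 were lower at 120 than at 240 min in it too. The WS medians were 0.196, 0.191 and 0.405 at 120 min and 0.889, 0.998 and 1.09 at 240 min, so the dip was shallower in replicate 3 but present in all. Without the Col-0 library of replicate 1 at 120 min the rule took 83 genes, all 43 members among them, and without the whole of Col-0 replicate 1 it took 99, with 38 of the members. Without Col-0 replicate 2 it took 23 genes (18 members) and without Col-0 replicate 3 24 genes (23 members). Leaving out a WS replicate gave between 34 and 40 genes. Whichever of the 6 replicates was left out, 10 members were kept: FBA5, BBD1, AT5G52780, CXXS1, CRR7, AT4G30690, SCPL13, AT1G06645, CYP71B18 and AT1G43675. At the times used for tests, 6 libraries were nearest to the group of the time before, among them all 3 of Col-0 at 60 min. The root mean square distance in log2 units was 0.777 to the own group and 0.600 to the earlier one for Col-0 at 60 min replicate 1, 0.667 and 0.415 for Col-0 at 30 min replicate 2, and 0.577 and 0.394 for WS at 30 min replicate 2. For the others, Col-0 at 60 min replicates 2 and 3 and Col-0 at 15 min replicate 3, both distances were nearly equal, such as 0.633 and 0.627. Nothing is read from which was smaller, given how the own mean was taken. Col-0 at 30 min replicate 3 was nearest to Col-0 at 60 min. The Col-0 libraries at 30 and 60 min were thus not well separated, and counts without the 3 libraries with the largest gaps, chosen after the data were seen, are given beside the tests. Depth, recovered from the steps between RPKM values, was 7.39 to 41.7 M reads in genes with a median of 28.6 M, and the shallowest library was WS at 0 min replicate 1. The leaf label was checked on RBCS1A, a Rubisco subunit gene of green tissue, which read 4731 to 24218 RPKM, while the root hair gene COBL9 did not exceed 0.01 RPKM in any library and the seed storage gene CRU3 was at 0.

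**Figure D1:**
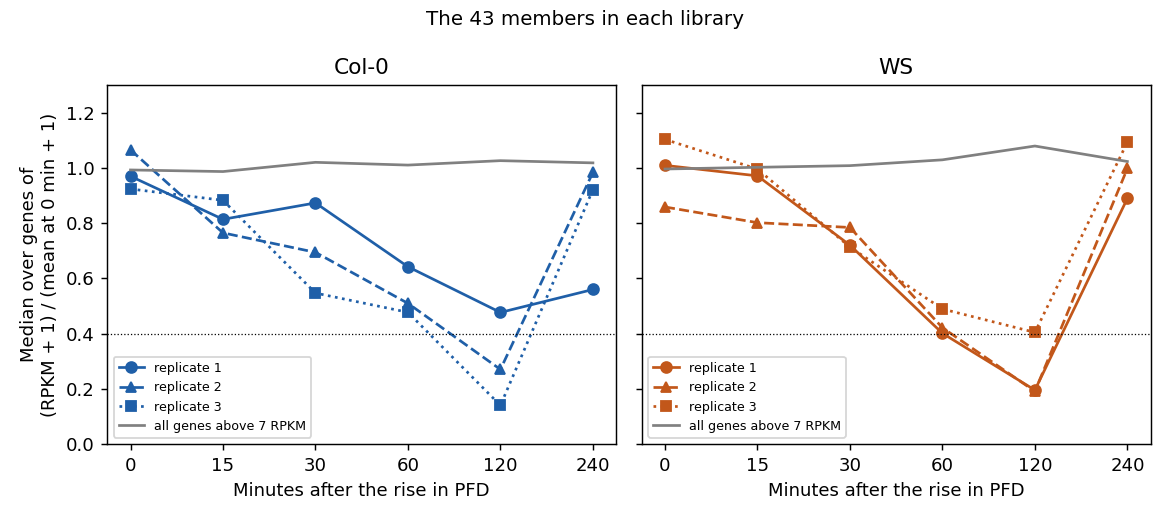
Median over the 43 members of RPKM + 1 in a library divided by the mean at 0 min + 1 (vertical axis), by minutes after the rise in PFD, for each replicate of Col-0 (left) and WS (right). The grey line is the median over the 3 libraries of the same ratio for all genes above 7 RPKM, and the dotted line marks 0.4. Col-0 replicate 1 reads 0.477 at 120 min and 0.560 at 240 min, while the other Col-0 libraries read 0.271 and 0.141 at 120 min.

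The median over the members declined step by step up to 120 min. The means fell at each step from 15 to 120 min for 27 members in Col-0 and 32 in WS. The share of all genes that did so was not counted. CP12-2 did not in Col-0, with means of 786, 950, 761 and 322 RPKM at 15, 30, 60 and 120 min. The median R of the 43 members in Col-0 was 0.85 at 15 min, 0.74 at 30 min, 0.54 at 60 min, 0.31 at 120 min and 0.84 at 240 min. In WS it was 0.95, 0.76, 0.44, 0.27 and 0.98 at the same times. The median of 13817 genes stayed between 1.00 and 1.08 throughout. The lowest mean was at 120 min for 39 members in Col-0 and 36 in WS, and for 36 in both. The others were lowest at 30 or 60 min. By 60 min all 43 members had a mean below that at 0 min in each ecotype, where 45.5% of all genes did in Col-0 and 47.4% in WS, but the rule used the mean at 0 min. R(60) was already at most 0.4 for 10 members in Col-0 and 19 in WS (3.52% and 4.60% of all genes). In WS 41 members had all 3 libraries at 120 min below all 3 at 0 min (19.1% of all genes). In Col-0 37 did (18.2%). All 3 libraries at 120 min lay below all 3 at 240 min for 31 members in Col-0 (10.8% of all genes) and 41 in WS (14.9%). Nothing is read from these counts, since the rule fixed the means behind them. The mean at 240 min was above that at 0 min for 20 members in WS and 7 in Col-0 (53.2% and 52.9% of all genes). Nothing is read from this contrast either, since the rule used both times. The median over the members at 240 min was 0.560 in Col-0 replicate 1, against 0.984 and 0.921 in replicates 2 and 3.

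**Figure D2:**
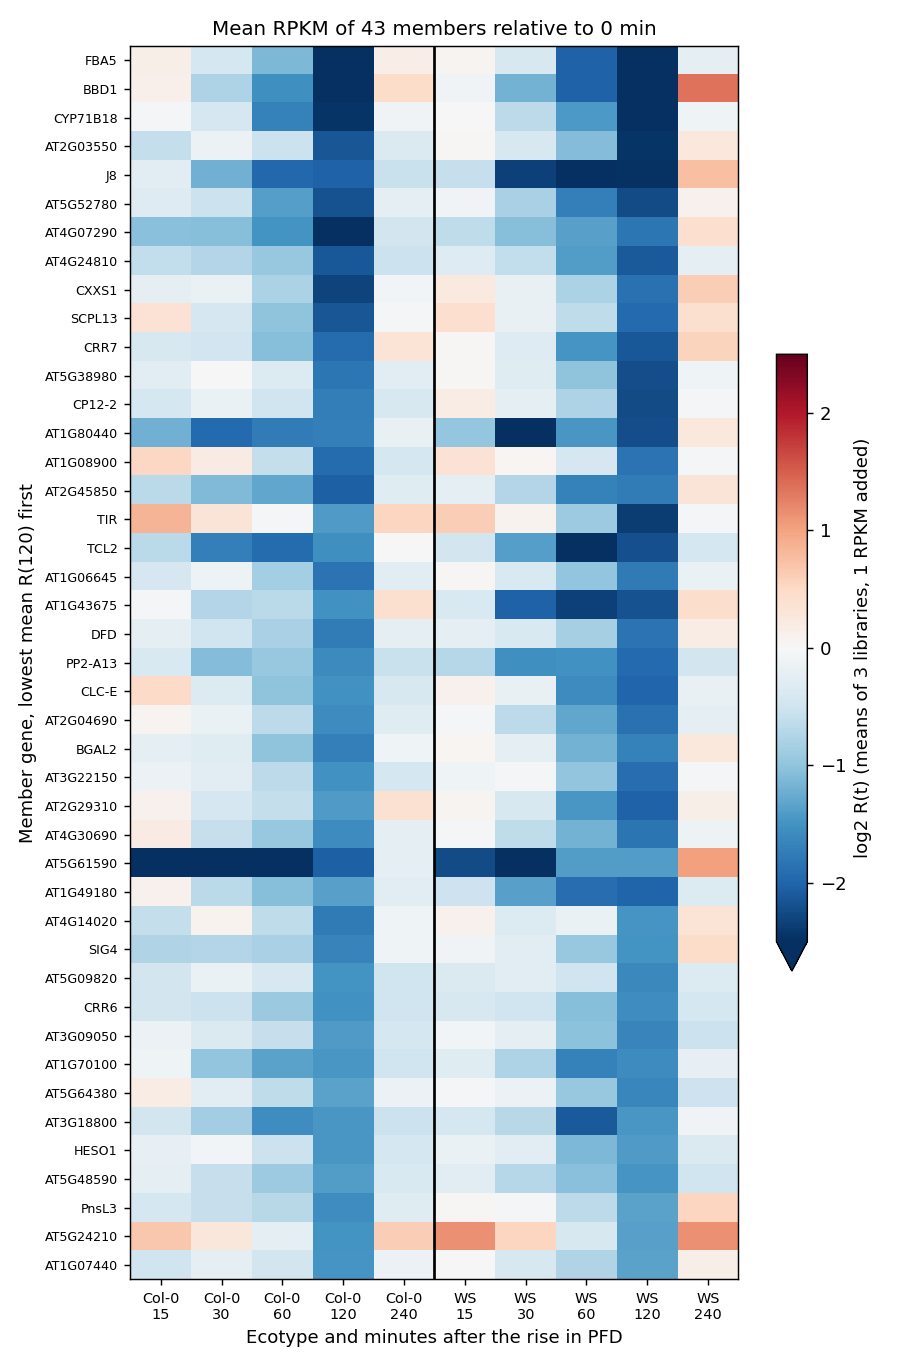
Colour shows log2 R(t), the mean RPKM of 3 libraries relative to 0 min with 1 RPKM added, for 43 members (rows, lowest mean R(120) at the top) at 5 times in Col-0 and WS (columns). Blue cells lie below the 0 min mean and red cells above it; values under the scale's end have the darkest blue. The darkest column in most rows is 120 min, and AT5G61590 is dark from 15 to 60 min in Col-0.

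FBA5 (AT4G26530, chr4:13390754-13393265), a gene for a cytosolic aldolase, had the lowest R(120) of the members in both ecotypes. Without the added 1 RPKM, the Col-0 mean of FBA5 at 0 min was 9.94 times that at 120 min, less than for AT4G07290 (20.1 times) and CYP71B18 (10.95 times). In WS its libraries read 386, 357 and 432 RPKM at 0 min, 15.4, 8.06 and 29.9 at 120 min, and 364, 203 and 428 at 240 min. The mean was 392 ± 37.7 RPKM (SD, n = 3) at 0 min and 17.8 ± 11.1 RPKM at 120 min. The Col-0 libraries read 185, 364 and 53.4 RPKM at 0 min, 45.3, 9.77 and 5.58 at 120 min, and 64.2, 374 and 240 at 240 min. Groups at 0 and 120 min did not overlap in either ecotype, but the Col-0 plants differed widely from each other at every time. Of the other 7 aldolase genes, a list chosen after the members were seen, FBA7 was nearest to this pattern. It had R(120) of 0.33 in Col-0 and 0.21 in WS, and R(240) of 0.78 and 0.57. FBA7 lies next to FBA5 on the same strand and the genes share 109 bases, and whether reads of one were counted for the other was not tested. The plastid aldolase genes FBA1 and FBA2 did not return, with R(240) of 0.36 to 0.46, and the cytosolic FBA8 stood above its starting level at 120 min in both ecotypes, with R(120) of 1.55 in Col-0 and 1.29 in WS.

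CP12-2 (AT3G62410, chr3:23090944-23091580) was the most abundant member, with a mean of 762 RPKM over 36 libraries. Its Col-0 libraries read 1276, 774 and 1153 RPKM at 0 min, 403, 209 and 355 at 120 min, and 407, 1006 and 1001 at 240 min. The WS libraries read 1113, 785 and 916 RPKM at 0 min, 175, 154 and 268 at 120 min, and 894, 796 and 1066 at 240 min. All libraries at 120 min lay below all at 0 min, while Col-0 replicate 1 held the same level at 120 and 240 min. The related CP12-1 had R(120) of 0.88 in Col-0 and 0.61 in WS. AT5G64380, which the study lists as a fructose bisphosphatase and the reference annotation as an inositol monophosphatase family protein, was the member nearest to the limit in Col-0, with R(120) of 0.396, and dipped from 31.1 ± 4.52 to 9.32 ± 5.47 RPKM (SD, n = 3) in WS. The main plastid fructose bisphosphatase gene, HCEF1, had R(120) of 0.74 in Col-0 and 0.57 in WS, and R(240) of 0.57 and 0.56. Other members with a part in metabolism were BGAL2, a beta-galactosidase of the cell wall, with means of 35.7 and 10.2 RPKM at 0 and 120 min in Col-0 (WS 39.9 and 11.7 RPKM), and DFD, which lengthens the glutamate tail of folates, with means of 62.6 and 17.8 RPKM in Col-0 (WS 40.4 and 10.6 RPKM).

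**Figure D3:**
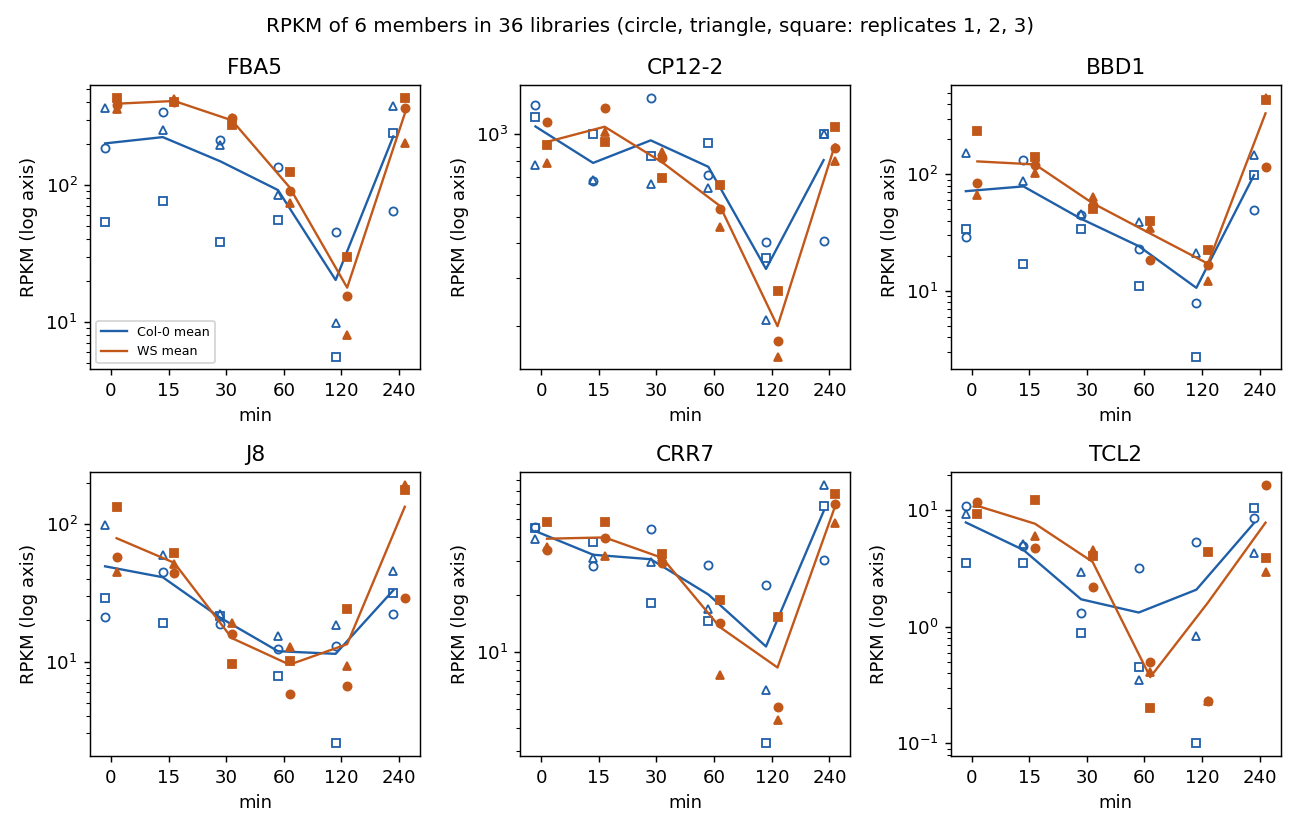
RPKM of 6 members (log axis) in all 36 libraries, by minutes after the rise in PFD, with open symbols for Col-0 and filled symbols for WS and circles, triangles and squares for replicates 1, 2 and 3. Lines join the means of 3 libraries. In FBA5 the WS libraries go from 357 to 432 RPKM at 0 min to 8.06 to 29.9 at 120 min, and in TCL2 the WS mean is lowest at 60 min.

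Members listed here for the NDH complex and its assembly were PnsL3, CRR6, CRR7 and SIG4. PnsL3 is a subunit in the thylakoid lumen, and CRR6 and CRR7 are needed to assemble the arm on the stromal side. SIG4 is a sigma factor that directs the plastid polymerase to the plastid gene for a subunit of the complex. CRR7 (AT5G39210) read 45.5, 39.1 and 44.6 RPKM in Col-0 at 0 min, 22.4, 6.27 and 3.31 at 120 min, and 30.5, 75.6 and 58.4 at 240 min. Its WS libraries read 34.4, 35.7 and 47.8 at 0 min, 5.14, 4.38 and 15.3 at 120 min, and 59.6, 47.7 and 67.6 at 240 min. All libraries at 120 min were below those at 0 and 240 min in both ecotypes, and Col-0 replicate 1 differed least between 120 and 240 min. PnsL3 had means of 80.3, 26.8 and 64.8 RPKM at 0, 120 and 240 min in Col-0 and of 58.8, 22.8 and 85.1 in WS. CRR6 came back least of the 4, with R(240) of 0.71 and 0.74, and SIG4 had R(240) of 0.93 and 1.37. Of 28 nuclear genes for the complex and its assembly, a list chosen after the members were seen, 27 had a reading above 7 RPKM, and their median R(120) was 0.478 in Col-0 and 0.398 in WS. R(120) was at most 0.4 for 10 of them in Col-0 and 14 in WS (6.16% and 6.41% of all genes), the 4 members included, and R(240) at least 0.67 for 13 and 15 (81.5% and 84.6% of all genes), with a median R(240) of 0.658 and 0.705. NDF5 missed the rule only by its R(240) of 0.633 in WS. Of the 6 plastid sigma factor genes SIG4 alone was a member; SIGA had dipped as far, with R(120) of 0.34 and 0.28, but stood at R(240) of 0.38 and 0.31. AT5G52780, annotated as a putative transmembrane protein with a DUF3464 domain, had R(120) of 0.22 and 0.21 and R(240) of 0.86 and 1.07.

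**Figure D4:**
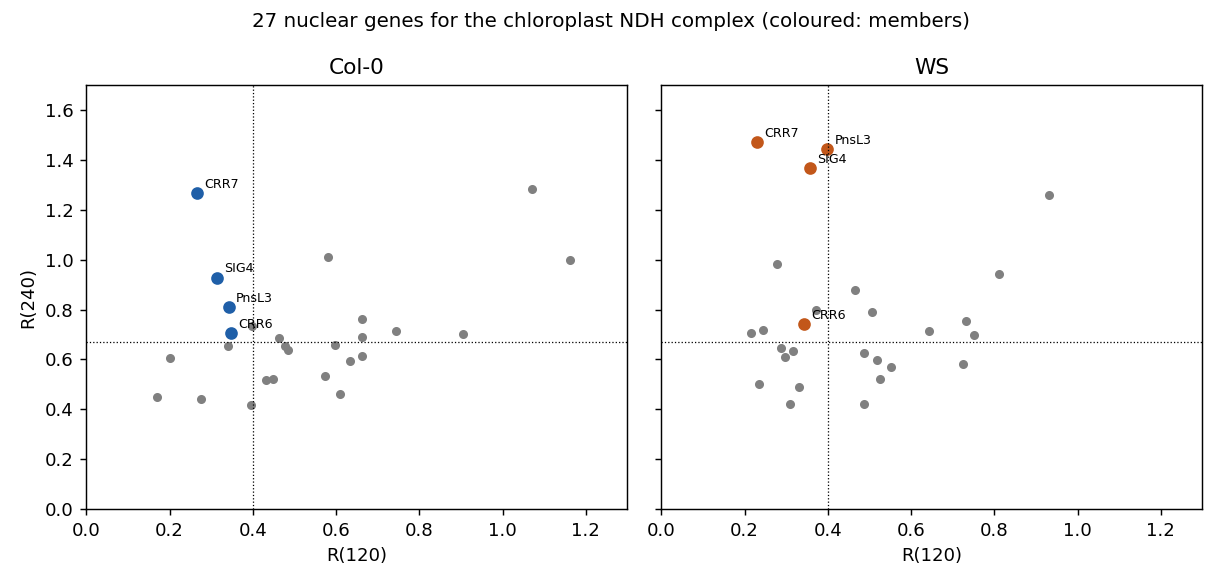
R(240) against R(120) for 27 nuclear genes of the NDH complex and its assembly in Col-0 (left) and WS (right), with the members coloured and named and the other genes in grey. Dotted lines mark the limits of 0.4 and 0.67. The 4 members lie in the upper left corner by their choice, and grey points lie on both sides of R(240) of 0.67.

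BBD1, a nuclease named for a part in basal defence, and J8, a small chloroplast DnaJ co-chaperone, had higher means at 240 than at 0 min in WS, with R(240) of 2.58 and 1.69. BBD1 read 84.5, 66.1 and 238 RPKM in WS at 0 min, 16.7, 12.1 and 22.5 at 120 min, and 115, 455 and 435 at 240 min. J8 read 57.9, 45.1 and 134 at 0 min, 6.59, 9.21 and 24.3 at 120 min, and 29.1, 194 and 178 at 240 min. In both genes WS replicate 1 was the lowest library at 240 min and replicate 3 the highest at 0 min, and the groups at 0 and 240 min overlapped. In Col-0 J8 had R(240) of 0.676, the value nearest to the limit. Among the regulators were TCL2, a small MYB protein that represses trichome formation, the AP2/ERF factor AT5G61590 (DEWAX), which represses wax synthesis, and the AT-hook protein AT2G45850 (AHL9). The DEWAX gene had its lowest means at 30 min, 0.317 RPKM in Col-0 and 0.29 in WS, from 15.0 ± 20.7 and 11.7 ± 6.23 (SD, n = 3) at 0 min. A single Col-0 library of 38.8 RPKM carried the Col-0 mean at 0 min, where the others read 3.69 and 2.38. AT1G80440, an F-box protein gene (KMD1) whose product acts against cytokinin responses, also had its lowest mean at 30 min, 0.413 RPKM in Col-0 and 0.37 in WS. Its Col-0 libraries read 0.38, 12.66 and 0.23 RPKM at 0 min and 0.83, 0.75 and 0.42 at 120 min, so replicate 2 alone carried the Col-0 mean and the other replicates were not lower at 120 min. AHL9 went from 11.5 to 2.06 RPKM in Col-0 and from 8.83 to 1.93 in WS between 0 and 120 min. HESO1, which adds uridines to unmethylated small RNAs, went from 11.4 to 3.52 and from 7.05 to 2.01 RPKM.

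The remaining members were mixed in kind. CYP71B18, a transcribed pseudogene of a cytochrome P450, had means of 8.91, 0.813 and 8.26 RPKM at 0, 120 and 240 min in Col-0. In WS they were 19.3, 1.64 and 17.7 RPKM. TIR, annotated as a toll/interleukin-1 receptor-like protein, had a higher mean at 15 min than at 0 min in both ecotypes, with means of 153, 279 and 56.5 RPKM at 0, 15 and 120 min in Col-0 and of 92.7, 142 and 17.1 in WS. The hydrolase gene AT5G24210 had the highest R(240) of Col-0, 1.53, and 2.22 in WS. CXXS1, a thioredoxin-like protein, CLC-E, a chloride channel protein of the chloroplast, the carboxypeptidase-like SCPL13, the plastid fibrillin AT5G09820 and the RALF peptide gene AT4G14020 were other members with a known family. AT1G07440 and AT2G29310 are annotated as NAD(P)-binding Rossmann-fold proteins, AT2G03550 like AT5G24210 as an alpha/beta-hydrolase, AT4G30690 as a translation initiation factor of the kind that bacteria and plastids use, AT2G04690 as a pyridoxamine phosphate oxidase family protein and AT3G22150 as a TPR-like protein. AT5G48590 is listed as a DUF760 protein, AT3G09050 as an 8-amino-7-oxononanoate synthase, AT1G70100 as a neurofilament heavy protein and PP2-A13 as a phloem protein, all names taken from the annotation, and AT3G18800 is uncharacterized. Over all 43 members R(120) ran from 0.105 to 0.396 in Col-0 and from 0.048 to 0.398 in WS, and R(240) from 0.676 to 1.53 and from 0.690 to 2.58. In all 40 members were annotated as protein coding, and AT4G07290, a long noncoding RNA, lies wholly inside the kinase gene AT4G24810 on the other strand, also a member, and inside AT4G24820. The strand setting of the counting is not given in the sources used here, so the reads of these genes cannot be told apart. Some members rested on few reads: AT4G07290 and AT5G61590 had 0 reads in at least 1 library, and 6 members had fewer than 10 in some library. The others of these 6 were TCL2 and AT1G80440 (fewest 2), AT1G43675 (5) and CYP71B18 (9). The members lay on chromosomes 1 to 5 in numbers of 11, 8, 9, 6 and 9.

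Among the members of low or middling level, the libraries separated more clearly in some than in others. CXXS1 read 36.2, 36 and 44.3 RPKM at 0 min, 10.6, 6.66 and 3.81 at 120 min and 28.5, 44.4 and 37.5 at 240 min in Col-0. Its WS libraries read 39.8, 31.7 and 50.2 at 0 min, 10.6, 7.52 and 12.8 at 120 min and 34, 78 and 75 at 240 min. CXXS1 thus had no overlap between 120 min and either other time in both ecotypes, Col-0 replicate 1 included. AT5G52780 read 72.5, 50.2 and 46.7 RPKM at 0 min, 23.3, 7.93 and 4.11 at 120 min and 28.5, 56.7 and 60 at 240 min in Col-0. In WS it read 61, 39.3 and 51.1 at 0 min, 4.83, 4.81 and 20.2 at 120 min and 52, 47.6 and 62.8 at 240 min. The highest library at 120 min was replicate 1 in Col-0 and replicate 3 in WS, those that stood apart over all members. AT5G24210 differed between the ecotypes in level, with 62.3, 57.9 and 79.5 RPKM at 0 min in Col-0 against 10, 16.3 and 21.7 in WS. At 120 min the Col-0 libraries read 47.1, 8.17 and 13.3 RPKM, and those of WS 0.59, 5.93 and 10.46. At 240 min WS replicate 1 stood at 4.81 while the other WS libraries read 48.8 and 56.3, so the high R(240) of WS came from 2 of 3 libraries.

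The decline before the dip could be tested at times that entered the rule only through its floor of 7 RPKM. In WS, 26 of the 43 members had fallen between 15 and 60 min in limma's test with Benjamini-Hochberg adjustment over 13817 genes, and none had risen, where 8.81% of all genes fell and 10.7% rose. The median difference of the members on the log2(RPKM + 1) scale was −1.06 against 0.01 for all genes, and 42 of 43 were signed lower (49.4% of all genes). TCL2 fell by 2.57 on the log2 scale (SE 0.61, adjusted p = 0.0032), from 4.71, 6.01 and 12.3 RPKM at 15 min to 0.5, 0.41 and 0.2 at 60 min. J8 fell by 2.39 (SE 0.65, adjusted p = 0.00971), from 44.3, 50.9 and 61.6 RPKM to 5.76, 12.7 and 10.05. FBA5 fell by 2.11 (SE 0.73, adjusted p = 0.0411), from 403, 422 and 404 RPKM to 89.7, 73.9 and 125. In these 3 genes the libraries of the 2 times were far apart. The smallest adjusted p was that of AT1G43675, a short pseudogene, which fell by 1.93 (SE 0.42, adjusted p = 0.00152). This gene rested on few reads, with a median of 57 and a lowest of 5 over 36 libraries. CP12-2 fell by 0.96 (SE 0.31, adjusted p = 0.0301). Of the 4 members on the list for the NDH complex CRR7 passed, with a fall of 1.56 (SE 0.45, adjusted p = 0.0149). PnsL3, CRR6 and SIG4 had differences of −0.69, −0.67 and −0.85 that did not pass (adjusted p = 0.184, 0.127 and 0.153). The only member signed higher was AT5G61590, at 0.34 (SE 0.82, adjusted p = 0.83). Without WS replicate 1, 2 or 3 the count of 26 went to 8, 7 and 8, with AT2G04690, AT1G06645, AT1G43675 and AT1G49180 past the test in every case. Of the 26 members, 15 did not pass in any of these 3 cases, among them J8, FBA5, CP12-2 and CRR7. Without Col-0 at 60 min replicate 1 and replicate 2 of both ecotypes at 30 min the count was 24.

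Between 15 and 60 min in Col-0, 4 of the 43 members had fallen and none had risen (0 with an unadjusted p under 0.05), where 3.82% of all genes fell and 4.47% rose by limma's test. CYP71B18 fell by 1.59 (SE 0.36, adjusted p = 0.00686), from 12.0, 8.81 and 4.79 RPKM to 1.97, 2.89 and 1.37. CLC-E fell by 1.49 (SE 0.39, adjusted p = 0.0168), the kinase gene AT1G49180 by 1.2 (SE 0.32, adjusted p = 0.0208) and the transporter gene AT1G08900 by 1.14 (SE 0.32, adjusted p = 0.0284). The first 3 had also fallen in WS (3.07% of all genes fell in both). Of all members 39 were signed lower (45.3% of all genes), 13 were so with an unadjusted p under 0.05 (9.46%), and the median was −0.66 against 0.04 for all genes. CP12-2 had a difference of −0.04 with a 95% interval from −0.69 to 0.61, and AT5G38980, annotated as uncharacterized and next to CP12-2 in mean RPKM, had −0.04. The Col-0 count went to 8, 0 and 1 without replicate 1, 2 and 3, and to 6 without the 3 libraries named above. With the replicate number as a block, for the case that a number is a plant, it was 8, and the WS count was 28. All 3 libraries at 60 min lay below all 3 at 15 min for 37 members in WS (19.0% of all genes) and 17 in Col-0 (10.6%).

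**Figure D5:**
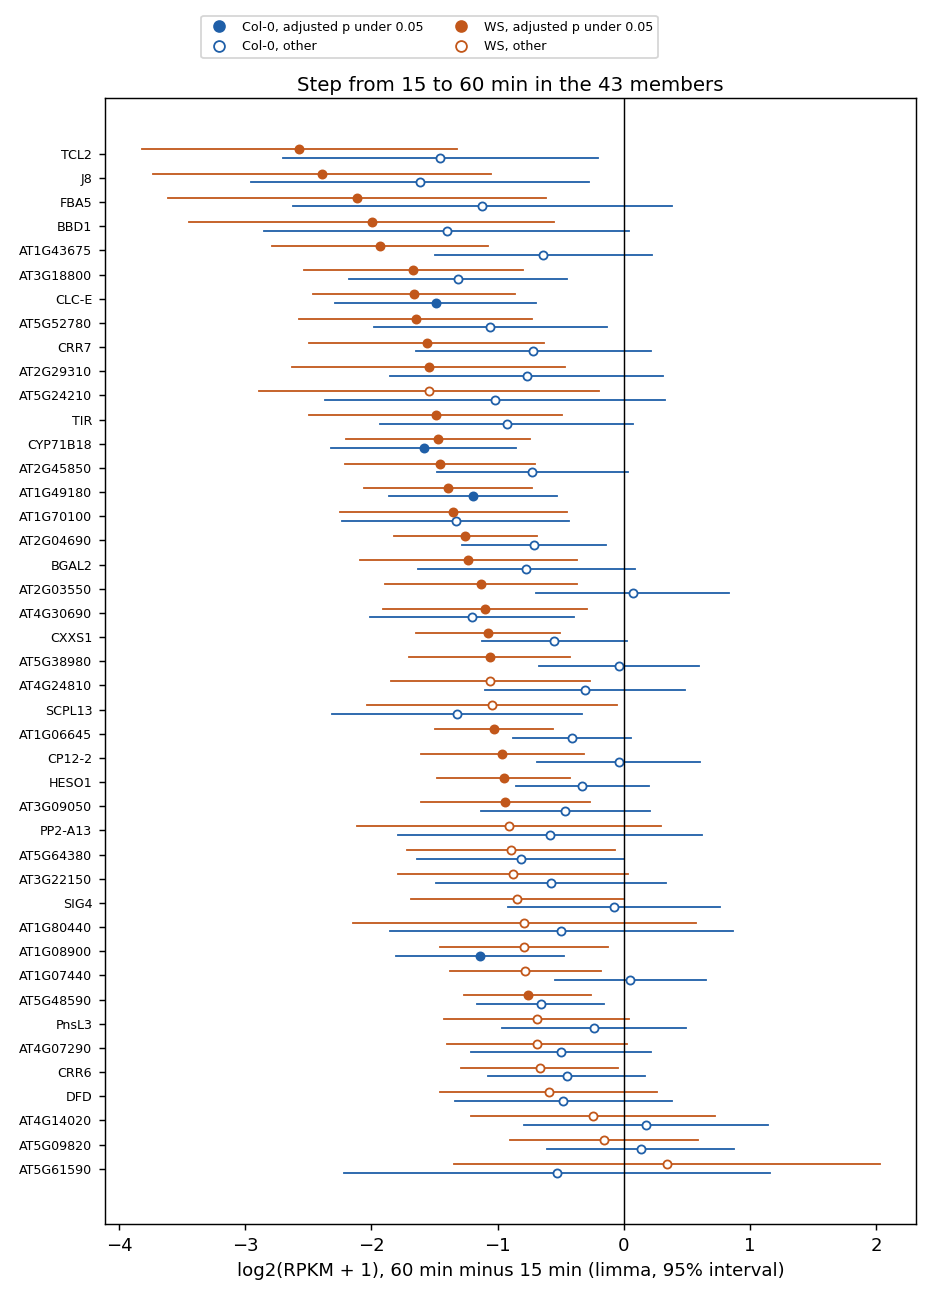
Difference of log2(RPKM + 1) between 60 and 15 min for the 43 members (rows, largest fall in WS at the top), with the 95% interval of limma's fit, in Col-0 (blue) and WS (orange). Filled points have an adjusted p under 0.05 over 13817 genes. There are 26 filled WS points and 4 filled Col-0 points, and 42 WS points and 39 Col-0 points lie left of 0.

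The fall was not placed within the interval by the shorter steps. Between 15 and 30 min none of the members passed the test (2 were lower with an unadjusted p under 0.05 in Col-0, where 3.21% of all genes were, and 5 in WS, where 4.04% were), and few genes passed at all (0.0145% fell in Col-0 and 0.0868% in WS). Between 30 and 60 min CLC-E alone fell in WS, by 1.40 (SE 0.39, adjusted p = 0.0357; not past without the same 3 libraries), where 1.93% of all genes fell and 2.97% rose. With the block 2 members fell in this step. Without adjustment 18 members were lower with p under 0.05 (8.49% of all genes). In Col-0 none passed in that step (4 lower at an unadjusted p under 0.05, against 3.45% of all genes), as for all genes.

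The larger count in WS does not show that the ecotypes differed in the step. In the test of the difference itself none of the 43 members passed (4 had an unadjusted p under 0.05, all lower in WS, where 1.89% of all genes were), and 38 were signed lower in WS (53.7% of all genes), with a median of −0.48 against −0.03 for all genes. Of all genes 0.0217% passed as lower and 0.0579% as higher. At single times a few members differed between the ecotypes. Their means at 0 min already stood on the same side, which was not tested. In Col-0 and WS the 0 min means were 418 and 292 RPKM for AT5G38980 and 68.9 and 42.2 for AT2G03550. For TIR they were 153 and 92.7, and for AT5G24210 66.6 and 16.0. At 0 min HESO1 read 12.1, 9.44 and 12.8 in Col-0 against 8.35, 6.52 and 6.29 in WS. CYP71B18 read 5.36, 13.2 and 8.15 against 23.9, 12.3 and 21.8, and AT1G06645 10.2, 12.3 and 12.0 against 20.6, 17.3 and 18.4. At 60 min 5 were lower in WS, where 6.31% of all genes were. HESO1 was lower by 1.22 (SE 0.26, adjusted p = 0.00179), at 2.55, 2.57 and 2.98 RPKM in WS against 6.49, 8.82 and 7.59 in Col-0. AT5G38980 was lower by 1.19 (SE 0.31, adjusted p = 0.0115), and AT2G03550, TIR and AT5G24210 by 1.25, 1.54 and 2.03 (adjusted p = 0.0269, 0.0388 and 0.0441). CYP71B18 was higher in WS by 1.27 (SE 0.36, adjusted p = 0.0191), where 4.57% of all genes were. At 15 min AT1G06645, a gene for a 2-oxoglutarate-dependent oxygenase, was higher in WS by 1.13 (SE 0.23, adjusted p = 0.00131; 2.42% of all genes were higher and 3.18% lower), with 20.7, 20.3 and 16.8 RPKM against 10.4, 6.82 and 7.73 in Col-0. At 30 min HESO1 alone passed, lower in WS by 0.83 (SE 0.26, adjusted p = 0.0402; 5.46% of all genes were lower and 2.84% higher). HESO1 was signed lower in WS at all 3 times. The 60 min count of 6 went down to between 1 and 5 when a replicate was left out.

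The rule was also applied with 1 replicate number left out in both ecotypes, and the picked genes were read in the libraries left out, as a description with 1 library a time and no test. Of 77 genes (25 members) picked without replicate 1, 42 met both limits in WS replicate 1, where 4.49% of all genes did. Only 3 of the 77 did so in Col-0 replicate 1 (0.159% of all genes), with a median R(120) of 0.543 and a median R(240) of 0.654. Of 20 genes (16 members) picked without replicate 2, 12 met both limits in Col-0 and 16 in WS (2.05% and 2.74% of all genes). Of 23 (22 members) picked without replicate 3, 22 met them in Col-0 and 15 in WS (5.22% and 1.6%). The smallest share was that of Col-0 replicate 1.

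Gene lists written down for this work were compared with the members. Those were 43 of 13817 genes above 7 RPKM, so nothing is read from a short list that held none. Of 18 genes listed here for the Calvin-Benson cycle CP12-2 was the only member. AT5G64380, which the study's own list places in this cycle, was a member outside these 18. Between 15 and 60 min 2 of the 18 fell in WS and 0 in Col-0 (8.81% and 3.82% of all genes, here and for the lists that follow), with medians of −0.42 and −0.11 on the log2 scale. Lists of 10 morning and 11 evening clock genes, 16 low-energy response genes, 18 antenna genes and 13 genes of starch degradation held no member. Among them 6 of the 16 low-energy genes had fallen by 60 min in WS and 4 in Col-0, with medians of −0.72 and −0.69. The antenna genes had 3 of 18 fallen in WS and 0 in Col-0, the morning clock genes 1 of 10 and 0 of 10. Of 662 genes named as transcription factors in the annotation 2 were members, the DEWAX gene and AHL9.

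The 250 bases before the annotated start of each member were searched on both strands for 12 short motifs in the reference sequence (RefSeq's TAIR10.1), beside the same windows of 13738 genes. TATCCA, part of the gibberellin and sugar responses of amylase genes in rice, was in the windows of 12 members (27.9%, against 14.7% of all genes). Of these 12 windows 6 had no base in another gene. The I-box GATAAG, found before genes of photosynthesis, was in 10 (23.3% against 12.8%) and TTATCC, a motif named for sugar repression, in 10 (23.3% against 13.5%). These 3 can share bases, and 8 of the 12 members with TATCCA also had TTATCC. The evening element AAAATATCT, bound by proteins of the clock, was in 3 (6.98% against 2.62%): FBA5, AT5G24210 and CXXS1. The CCA1 site AAAAATCT, named for a clock protein, was in 2 (4.65% against 6.94%). The G-box CACGTG was in 1 (2.33% against 7.94%) and the ACGTGG core in 3 (6.98% against 9.59%). A match is a run of letters and not a bound site. TCL2 and J8 are shown since they held 3 and 2 copies of TATCCA and had the largest falls in WS by 60 min, and CXXS1 since it held the evening element. The window of FBA5, which held 2 copies of TATCCA and the evening element, lies wholly inside FBA7 and is not shown. Each line gives the 250 bases 5′ to 3′ on the strand of the gene, with TATCCA or its complement TGGATA in capitals for TCL2 (chr2:12965724-12965973, minus strand, first bases 247, 197 and 37 before the start) and J8 (chr1:30404714-30404963, minus strand, first bases 132 and 48 before the start), and the evening element in capitals for CXXS1 (chr1:3874146-3874395, plus strand, first base 113 before the start).
TCL2: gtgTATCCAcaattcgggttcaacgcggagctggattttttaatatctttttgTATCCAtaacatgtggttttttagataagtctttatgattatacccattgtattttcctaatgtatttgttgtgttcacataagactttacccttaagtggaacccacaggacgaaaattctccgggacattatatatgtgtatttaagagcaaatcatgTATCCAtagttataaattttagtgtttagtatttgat
J8: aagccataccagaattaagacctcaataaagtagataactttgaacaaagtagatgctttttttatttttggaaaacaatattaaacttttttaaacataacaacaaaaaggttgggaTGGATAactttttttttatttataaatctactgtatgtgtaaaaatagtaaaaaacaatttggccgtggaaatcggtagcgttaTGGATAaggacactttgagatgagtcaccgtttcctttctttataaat
CXXS1: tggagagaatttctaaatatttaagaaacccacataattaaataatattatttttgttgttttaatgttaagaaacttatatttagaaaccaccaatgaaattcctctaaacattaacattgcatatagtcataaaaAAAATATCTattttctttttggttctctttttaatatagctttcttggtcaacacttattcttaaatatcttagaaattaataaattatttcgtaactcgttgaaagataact

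The limits of the rule cut through a run of values. The members just inside R(120) of 0.4 were AT5G64380 (0.396), AT1G49180 (0.391) and AT5G48590 (0.379) in Col-0 and PnsL3 (0.398), AT1G07440 (0.395) and AT5G24210 (0.392) in WS. The genes just outside were AT3G09410 (0.401), AT2G03310 (0.401) and AT5G04810 (0.405) in Col-0 and CYP71B4 (0.411), RHA1B (0.420) and RABG3B (0.441) in WS. Just inside R(240) of 0.67 were J8 (0.676), PP2-A13 (0.683) and AT4G24810 (0.689) in Col-0 and AT3G09050 (0.690), AT5G64380 (0.696) and AT5G48590 (0.712) in WS. Just outside were AT5G54980 (0.669), ATG8F (0.667) and AT5G50180 (0.664) in Col-0 and NIMIN-3 (0.656), NDF5 (0.633) and AT4G14620 (0.605) in WS. Each gene outside met the 3 other limits.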

How the data were processed

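The authors deposited RPKM values, made from 50-base single reads after trimming (Trimmomatic 0.32), alignment (STAR 2.3.0e, TAIR10 genome) and gene counting (featureCounts). The sources used here give neither strand setting nor annotation release. The labels head times as hours and give 20 where the titles give 30 min, and the minutes of the titles were used. Log2(RPKM + 1) values of 36 libraries in 12 groups, of 13817 genes with a reading above 7 RPKM, were fitted with limma 3.58.1 in R 4.3.3 (lmFit, eBayes with trend, 24 residual degrees of freedom). Tests were 2-sided with an adjusted p threshold of 0.05 (Benjamini-Hochberg within each comparison), and the script was tested on simulated data. Reads were recovered from RPKM steps, with exon lengths for 37051 of 37336 genes. In each library at least 99.7% of the 346 to 1218 small values tested lay within 0.1 read of whole. The recovery chose the depth by this same share, so the share is no independent check. The members and lists were chosen with earlier results of these data known. Genes were named by list, level, depth of the dip, adjusted p and nearness to a limit; the 9 members this left (AT1G70100, AT1G80440, SCPL13, AT3G22150, DFD, AT4G07290, AT4G14020, AT4G30690 and SIG4) and related genes were named after their values were seen. Leaves of 6 times came from 3 plants an ecotype, but neither labels nor methods say that a replicate number is 1 plant, so the model has no plant term, leaves of a plant are not independent in it, and a fit with the number as a block is given beside the tests. No named sample column was left unused. Alternatives were 0.1 RPKM added, other filters, TPM, median of ratios, each ecotype alone, a replicate block, voom on recovered reads and each replicate left out.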

Additional observations from a re-analysis of the deposited data

How the results depend on the processing

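The count of members of the dip rule was 66 with 0.1 RPKM added in place of 1, 83 with the median of 3 libraries, 69 with TPM, 11 with limits of 0.3 and 0.8, 306 with limits of 0.5 and 0.5, and 23 to 99 with a replicate left out. Settings added after the data were seen gave 164 without Col-0 at 120 min replicate 1, WS at 120 min replicate 3 and WS at 0 min replicate 1, and 83 without the first of these alone. For 60 versus 15 min, the count of members lower in Col-0 (4) was 2 with 0.1 RPKM added, 1 with each ecotype fitted alone, 8 with voom and 0 to 8 with a replicate left out, and in WS (26) it was 16 with no filter and 7 to 8 with a replicate left out. For WS 60 versus 30 min (1) it was 0 with 0.1 RPKM added, with no filter, with voom, with a WS replicate left out and without 3 libraries near an earlier group (Col-0 at 60 min replicate 1, Col-0 and WS at 30 min replicate 2), and 5 with each ecotype alone. WS versus Col-0 at 15 min (1) gave 2 with a filter of 1 RPKM in 3 libraries and without those 3 libraries, and 1 to 3 with a replicate left out. At 30 min (1) it gave 0 with 0.1 RPKM added, with no filter and with TPM, 2 with voom, and 0 to 2 with a replicate left out. At 60 min (6) it gave 3 with voom and 1 to 5 with a replicate left out. With the replicate number as a replicate block the counts were 8 in Col-0 for 60 versus 15 min and 2 in WS for 60 versus 30 min; 49 of 90 pairs of same-numbered libraries had deviations that correlated above 0.1 (−0.427 to 0.652), and all 3 pairs did so for only some pairs of times, so the numbers were not taken as a pairing. For these counts the cause was not tested. A left-out replicate also leaves fewer samples, and its part in the changes was not tested either. Among gene results past the test for 60 versus 15 min and for WS versus Col-0, no direction was reversed. Changes of sign among results not past the test were not counted.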
